A study of Rattus norvegicus with 12 samples.

Results

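The nicotinic acetylcholine receptor subunits are described here in the dorsal striatum of rats with a lesion of the nigral dopamine neurons. The members are Chrna2, Chrna3, Chrna4, Chrna5, Chrna6, Chrna7, Chrnb2, Chrnb3 and Chrnb4. They were found by name among the probes of the array that are not controls, ignoring case, and every probe of each gene was kept. They make up 9 of the 35623 genes on the array and 11 of its 41012 probes, spotted on 20 of 43379 positions. Chrna7 has 3 probes, and the other 8 genes have 1 each.

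RNA from the dorsal striatum of 12 male rats was measured on 12 single-colour Agilent arrays, 1 rat per array, in 4 groups of 3. All rats had received 9 µg of 6-hydroxydopamine (6-OHDA) in the left substantia nigra pars compacta, and the striatum was taken 33 days later. The 6-OHDA group had the lesion alone and no electrode. The HFS group received high frequency stimulation of the subthalamic nucleus for 5 days, from day 28 after the lesion, through an electrode on the lesioned side (frequency 130 Hz, pulse width 80 µs, current 60 µA). The DOPA group received L-DOPA at 25 mg/kg with benserazide at 12.5 mg/kg, in 2 injections a day for 19 days from day 14. The DOPA/HFS group received both. Stimulation and the implanted electrode cannot be told apart, and every array came from a lesioned rat, so no effect of the lesion is measured here. The rats and their tissue samples were separate in all groups.

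Nicotinic receptors are cation channels opened by acetylcholine and built from several subunits. The α4 and β2 subunits form the common high-affinity receptor of the brain, to which α5 can be added as an accessory subunit, while α7 can form a receptor on its own that lets calcium in. In the striatum, acetylcholine comes mainly from cholinergic interneurons, and many nicotinic receptors sit on the terminals of incoming axons, whose messenger RNA lies in cell bodies elsewhere. Receptors that hold α6 and β3 are typical of midbrain dopamine neurons.

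The promoters of Chrna7, Chrna4 and Chrna5 are shown because Chrna7 was the subunit whose HFS arrays were separate from those of the lesion alone, and because Chrna4 and Chrna5 varied together across the rats. Each is the 250 bases before the start of the RefSeq gene model on rat build GRCr8, read 5′ to 3′ on the strand of the gene, with GC boxes in capitals. The box was searched as GGGCGG and, for the other strand, as CCGCCC, and the matches do not overlap. The window of Chrna7 is chr1:126249130-126249379 on the minus strand, that of Chrna4 is chr3:188534527-188534776 on the minus strand, and that of Chrna5 is chr8:64265629-64265878 on the plus strand.
Chrna7: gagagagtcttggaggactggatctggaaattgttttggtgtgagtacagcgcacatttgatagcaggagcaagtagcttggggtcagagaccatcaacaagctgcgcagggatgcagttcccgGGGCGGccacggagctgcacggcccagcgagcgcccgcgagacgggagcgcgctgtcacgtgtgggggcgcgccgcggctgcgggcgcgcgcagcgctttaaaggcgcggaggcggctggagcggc
Chrna4: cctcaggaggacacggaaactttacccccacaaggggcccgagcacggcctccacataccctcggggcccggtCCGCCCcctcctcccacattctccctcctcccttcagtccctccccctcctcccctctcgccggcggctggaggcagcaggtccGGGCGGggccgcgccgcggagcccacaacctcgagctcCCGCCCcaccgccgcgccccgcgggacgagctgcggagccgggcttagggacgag
Chrna5: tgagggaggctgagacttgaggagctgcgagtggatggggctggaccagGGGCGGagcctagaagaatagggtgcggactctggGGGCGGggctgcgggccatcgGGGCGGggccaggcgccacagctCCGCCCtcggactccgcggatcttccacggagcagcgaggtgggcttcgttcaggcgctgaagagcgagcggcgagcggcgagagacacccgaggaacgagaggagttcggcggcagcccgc
Chrna7 had 1 box, Chrna4 had 3 and Chrna5 had 4. The promoter table held 6 of the 9 members, without Chrna2, Chrna6 and Chrnb3. All 6 had at least 1 box, against 30.467% of the 33469 promoters in the table, or 10197. Their G and C content ran from 59.6% at Chrnb2 to 74.4% at Chrna4, with a median of 51.2% over all promoters. These matches describe letters and not bound sites. Chrna5, Chrna3 and Chrnb4 are neighbours on chromosome 8, and Chrna6 and Chrnb3 on chromosome 16, in the gene table of the same build.

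Detection separated the family before any comparison between groups. A probe counted as measured on an array when the scanner software marked its spot as well above background. A gene was tested when any of its probes was so marked on at least 5 of the 12 arrays, and the brightest of those probes stood for it. Chrna7, Chrna4, Chrna5 and Chrnb2 passed, which is 4 of the 9 members, and 20405 genes passed on the array as a whole. Values are log2 of the background-corrected signal after quantile normalization between arrays. A signal depends on the probe as well as on the RNA, so levels are compared between rats and not between subunits.

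**Figure D1:**
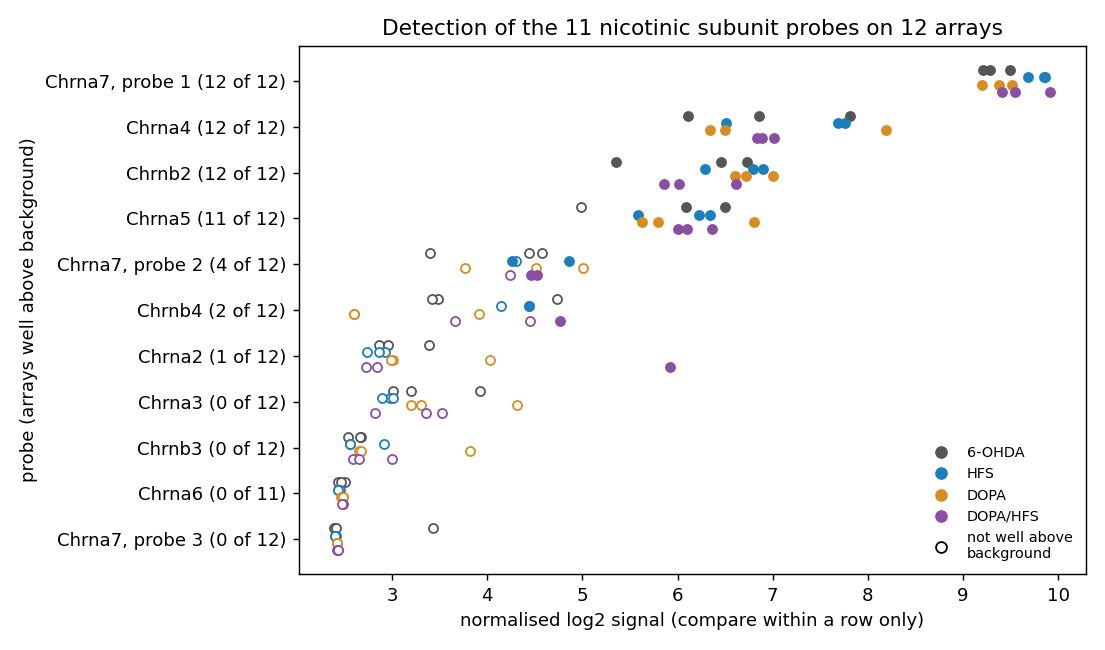
Normalised log2 signal of the 11 nicotinic subunit probes, 1 row per probe, on each of the 12 arrays, with the group in colour. Filled points were well above background and open points were not, and the brackets give the number of arrays above background of those with a value. Chrna4, Chrnb2 and the brightest Chrna7 probe were above background on 12 of 12 arrays and Chrna5 on 11, while no other probe was above background on more than 4.

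The subunits typical of dopamine neurons were not detected above background in this tissue. Chrna6, the subunit that marks receptors of dopamine terminals, was well above background on 0 of the 11 arrays with a usable spot, at log2 signals of 2.43 to 2.51. The spot was marked as an outlier on the third DOPA/HFS array. Chrnb3, which joins α6 in those receptors, was above background on 0 of 12 arrays at 2.54 to 3.81.

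Other genes of dopamine neurons were partly detected. Slc6a3, the dopamine transporter, was also above background on 0 of 12 arrays. Th, the rate-limiting enzyme of dopamine synthesis, was above background on 10. The summed signal of 5 dopamine neuron genes ran from 2776 to 4464 in the 6-OHDA group, from 1687 to 3717 in HFS, from 3738 to 4793 in DOPA and from 3162 to 3994 in DOPA/HFS. Most of that sum came from Ddc on every array, so it describes that gene more than the others.

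The subunits of the habenula and of peripheral ganglia were at or near background. Chrna3, an α subunit of ganglionic receptors, was above background on 0 of 12 arrays at 2.82 to 4.31. Chrnb4, its usual β partner, was above background on 2 arrays, the third HFS array at 4.44 and the first DOPA/HFS array at 4.76, and the other 10 arrays lay between 2.60 and 4.74. So the brightest array without that mark was the third 6-OHDA array, within the range of the marked ones.

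Chrna2, an α subunit with a narrow distribution in the brain, was above background on 1 of 12 arrays, the third DOPA/HFS array, at 5.92. The other 11 arrays lay between 2.73 and 4.03. That array had 4175 spots marked as outliers, against 2 to 25 on the others. None of these 5 genes was tested between groups, and no lower bound on a fold could be given for any of them, since either no array of the groups compared was above background or the mean of the brighter group lay under the lowest signal above background of the dimmer one.

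Chrna7 encodes the α7 subunit and had the smallest standard error of the 4 tested subunits. Its brightest probe was spotted 10 times on each array. In the 6-OHDA group the log2 signal was 9.21, 9.28 and 9.49. In the HFS group it was 9.86, 9.69 and 9.85. Each HFS array was above each 6-OHDA array, and on each slide the HFS array exceeded the 6-OHDA array, by 0.65, 0.41 and 0.36. Such a separation from 6-OHDA, in either direction, was found for 5.13 percent of all genes.

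The DOPA arrays gave 9.51, 9.19 and 9.38 for Chrna7, and so overlapped the 6-OHDA group. The DOPA/HFS arrays gave 9.91, 9.55 and 9.40. Of these the first and second lay above all 6-OHDA arrays and the third lay within their range. The third array had lost 4 of its 10 Chrna7 spots to outlier marks, and its spots before normalization and before that exclusion ran from 9.41 to 12.50. Within slides, DOPA/HFS exceeded DOPA by 0.40, 0.35 and 0.03.

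The mean of Chrna7 was 9.33 ± 0.15 (SD, n = 3) in 6-OHDA and 9.80 ± 0.10 (SD, n = 3) in HFS. The difference was 0.47 on the log2 scale (SE 0.16, 95% confidence interval 0.11 to 0.83), or 1.39-fold. In limma the unadjusted p was 0.0147 and the p adjusted over all 20405 genes was 0.998, so the gene was not called. The exact two-sided permutation test gave p = 0.1, the smallest value that 3 arrays against 3 allow. Chrna7 ranked 102 of 20405 genes by p in this comparison. The gene is among those that the study chose from these same arrays, so its values here are not independent evidence of its direction.

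**Figure D2:**
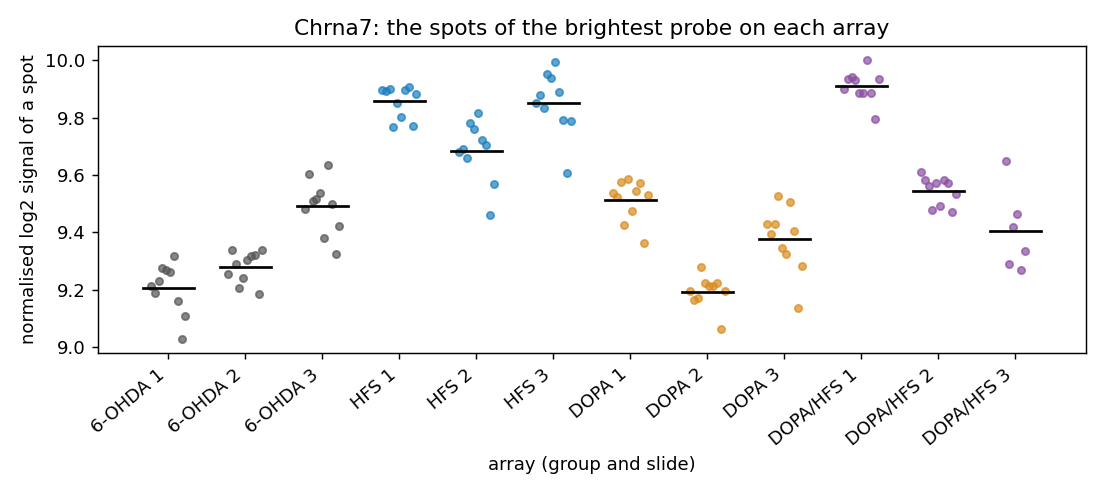
Normalised log2 signal of each usable spot of the brightest Chrna7 probe, by array, with the group and slide on the x axis. Points are spots, 10 per array and 6 on the third DOPA/HFS array, and black lines are array means. The HFS arrays averaged 9.86, 9.69 and 9.85 and the 6-OHDA arrays 9.21, 9.28 and 9.49.

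The spread between rats was larger than the spread between spots of Chrna7. The SD over the spots of an array ran from 0.05 to 0.14, with a median of 0.08. The SD between arrays of the same group, pooled over the 4 groups, was 0.18. The spots of an array are repeat readings of 1 rat and add nothing to the number of rats.

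Chrna7 was also compared between all stimulated and all unstimulated rats. Averaged over rats with and without L-DOPA, the mean was higher with stimulation by 0.37 on the log2 scale (SE 0.12, 95% confidence interval 0.11 to 0.62), or 1.29-fold. The unadjusted limma p was 0.00911 and the adjusted p was 0.912. The exact permutation test, with the labels of stimulation exchanged within each L-DOPA level, gave p = 0.01 over 400 divisions, where 0.005 is the smallest possible. It was 1 of 20 such exact tests made on the 4 genes. The effect of HFS on Chrna7 with L-DOPA minus that without was -0.21 (SE 0.23, 95% confidence interval -0.72 to 0.29), within its error.

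In the other groups the mean of Chrna7 lay closer to the lesion alone than the HFS mean did. DOPA differed from 6-OHDA by 0.04 (SE 0.16, 95% confidence interval -0.32 to 0.40), a range that allows changes of either sign. DOPA/HFS differed by 0.29 (SE 0.16, 95% confidence interval -0.07 to 0.66), with an exact permutation p of 0.2 for 3 arrays against 3. With an array left out that difference ran from 0.15, without the first DOPA/HFS array, to 0.40, without the third. Across the processing settings it ran from 0.10, in the deposited table, to 0.38. In the deposited table the median of all genes in this comparison was -0.12. The comparisons with 6-OHDA share the same 3 control arrays.

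The other Chrna7 probes could not check this difference. The dimmer probe was above background on 4 of 12 arrays, the second and the third HFS array and the first and the second DOPA/HFS array. Its signal was 4.57, 3.40 and 4.44 in 6-OHDA and 4.30, 4.26 and 4.86 in HFS, so these groups overlapped. When it was tested in place of the brightest probe, HFS differed from 6-OHDA by 0.34 (SE 0.35). The faintest probe was above background on 0 of 12 arrays.

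The share of all spots that were well above background also differed with stimulation. It was 60.0% to 63.2% on the 6 arrays of stimulated rats and 50.5% to 58.9% on the other 6, with no overlap. The Chrna7 signals of these 2 sets of arrays did overlap. Over all 12 arrays Chrna7 correlated with the share at r = 0.580 and rho = 0.727 (adjusted permutation p = 0.190 and 0.0427, over 18 relations). The arrays fall into separate clusters of the share, so these values carry the difference between stimulated and unstimulated rats. Within slides, each with 1 array per group, Chrna7 correlated with that share at r = 0.762, 0.929 and 0.703. These values still carry the difference between the clusters. Over arrays expressed as deviations from their group means r was -0.09. The part of this share in the Chrna7 value was not tested. On each slide the DOPA array lay in position 1, the 6-OHDA array in position 2, the DOPA/HFS array in position 3 and the HFS array in position 4, and position on the slide and group cannot be told apart.

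Choroid plexus genes also moved with the HFS group, and their part in the Chrna7 value was not tested. The summed signal of 11 such genes was 391 to 789 in 6-OHDA, 4596 to 90883 in HFS, 434 to 16938 in DOPA and 313 to 1123 in DOPA/HFS. On the third DOPA/HFS array, at 313, Folr1 and Slc4a5 had no usable spot and are missing from the sum. Of the 11, 7 were tested and all 7 were higher in HFS at an unadjusted limma p under 0.05, against 2.34 percent of all genes in either direction. Of these, Clic6 and Kcnj13 reached the filter through treated arrays alone, so this count is a description. Ttr, a carrier of thyroxine made by the choroid plexus, was at 16.30, 11.86 and 15.28 in the HFS rats. It made up most of the summed linear signal on those arrays and on the third DOPA array. The first and the third HFS array had the highest sums of the 12, 90883 and 45851, with Chrna7 at 9.86 and 9.85, and the second HFS array had a sum of 4596 with Chrna7 at 9.69. Outside HFS the highest sum, 16938, was on the third DOPA array, with Chrna7 at 9.38, and the highest Chrna7 signal, 9.91, was on the first DOPA/HFS array, with a sum of 889. Within slides Chrna7 correlated with the log2 of the sum at r = 0.590, 0.625 and 0.596 over 4 arrays each. A slide holds 1 array per group, so these values carry the differences between groups. Over deviations from the group means r was 0.21.

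In bulk tissue, fewer cells of a type and less RNA per cell cannot be told apart. The neurons of the region were well represented. All 9 genes of striatal projection neurons were tested, and their summed signal was 221572 to 290536 in 6-OHDA and 242893 to 273058 in HFS. The summed signal of 5 cholinergic interneuron genes was 13275 to 14203 in 6-OHDA and 9647 to 13302 in HFS, while that of 5 microglia genes was 10393 to 11399 and 10116 to 11415.

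Chrna4 encodes the α4 subunit of the high-affinity receptor and varied widely between rats of the same group. The log2 signal was 7.82, 6.11 and 6.85 in 6-OHDA and 6.50, 7.69 and 7.76 in HFS. It was 6.50, 6.34 and 8.19 in DOPA and 7.01, 6.83 and 6.88 in DOPA/HFS. All 4 groups overlapped. The highest array was the third DOPA array and the lowest the second 6-OHDA array, and the SD between rats ran from 0.09 in DOPA/HFS to 1.02 in DOPA (n = 3 each).

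No treatment effect on Chrna4 could be resolved against that spread. HFS differed from 6-OHDA by 0.39 (SE 0.54, 95% confidence interval -0.79 to 1.57), DOPA by 0.08 and DOPA/HFS by -0.02, with the same SE. The interval for HFS lies on both sides of 0 and includes differences above 1 log2 unit. The exact permutation p was 0.7 or higher in each of the 3 comparisons of 3 arrays with 3. The HFS difference was 0.83 without the first 6-OHDA array, -0.02 without the second 6-OHDA array and 0.80 without the first HFS array.

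Chrnb2 encodes β2, the partner of α4. Its log2 signal was 6.46, 5.35 and 6.73 in 6-OHDA and 6.29, 6.80 and 6.90 in HFS. It was 7.0, 6.61 and 6.72 in DOPA and 6.62, 5.85 and 6.02 in DOPA/HFS. The second 6-OHDA array was the lowest of the 12, as it was for Chrna4, and the groups overlapped in each comparison with 6-OHDA.

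The mean of Chrnb2 was 6.18 with the lesion alone, 6.66 after HFS, 6.78 after DOPA and 6.16 after their combination. HFS differed from 6-OHDA by 0.48 (SE 0.34, 95% confidence interval -0.26 to 1.23) and DOPA by 0.60 (SE 0.34, 95% confidence interval -0.14 to 1.34). DOPA/HFS differed by -0.01 (SE 0.34). Without the second 6-OHDA array the HFS difference was 0.071 and the DOPA difference 0.19, and without the third 6-OHDA array they were 0.76 and 0.87. The effect of HFS with L-DOPA minus that without was -1.10 (SE 0.48, 95% confidence interval -2.15 to -0.05), with an unadjusted limma p of 0.042 and an adjusted p of 1. On the 3 slides DOPA/HFS lay under DOPA by differences of -0.38, -0.75 and -0.70, and HFS minus 6-OHDA was -0.17, 1.45 and 0.17. Without the second 6-OHDA array the interaction became -0.68, and that array lay on the slide with the largest HFS difference.

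Chrna5 encodes the accessory α5 subunit. Its log2 signal was 6.50, 4.99 and 6.09 in 6-OHDA and 5.59, 6.23 and 6.34 in HFS. It was 5.80, 5.63 and 6.80 in DOPA and 6.36, 6.10 and 6.01 in DOPA/HFS. The second 6-OHDA array, at 4.99, was the array on which Chrna5 was not above background, and all groups overlapped. HFS differed from 6-OHDA by 0.19, DOPA by 0.21 and DOPA/HFS by 0.29, each with an SE of 0.40 and with an exact permutation p of 0.8 for 3 arrays against 3.

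**Figure D3:**
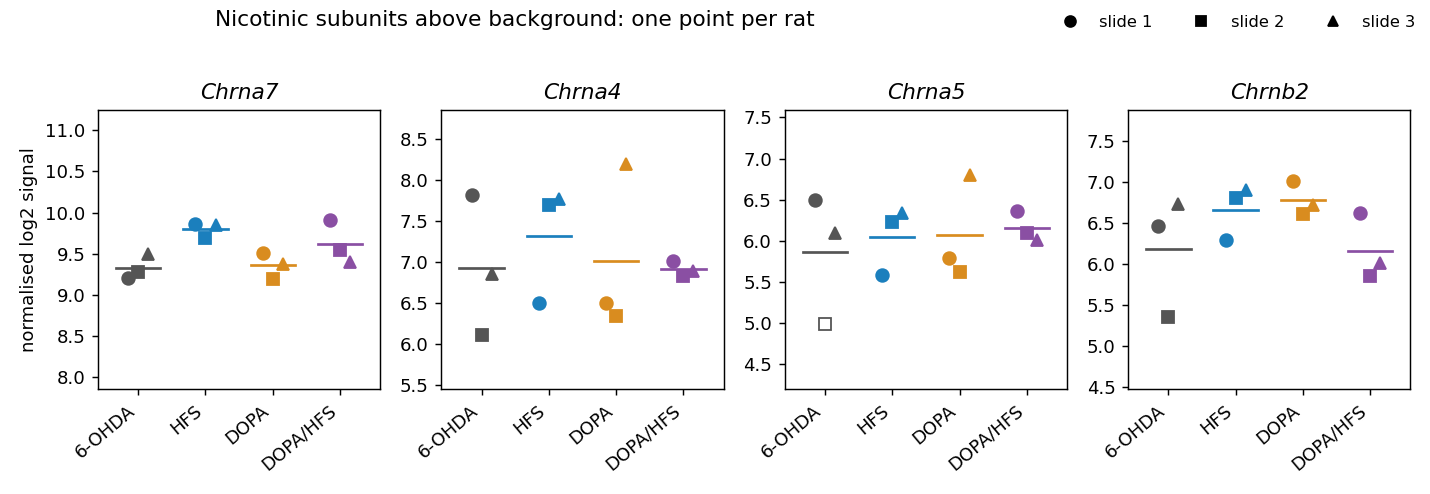
Normalised log2 signal of the 4 nicotinic subunits that passed the filter, by group, with 1 point per rat and the marker giving the slide. Horizontal lines are group means, the open point was not above background, and each panel spans the same number of log2 units. The HFS arrays lie above the 6-OHDA arrays for Chrna7, at 9.69 to 9.86 against 9.21 to 9.49, and the groups overlap with 6-OHDA in the other panels.

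No member passed the call rule. Of the 4 members tested, limma called 0 in any comparison of a treatment with 6-OHDA at an adjusted p under 0.1 with a fold over 1.2 or under 0.8, where 0, 0.0049 and 0 percent of the 20405 genes were called for HFS, DOPA and the combination. None was called for the effect of HFS averaged over L-DOPA, that of L-DOPA averaged over HFS or the interaction, where 0, 0.0049 and 0 percent of all genes were. At an unadjusted p under 0.05, 1 of 4 passed in HFS, Chrna7, against 2.34 percent of genes, and 0 passed in DOPA and DOPA/HFS, against 2.59 and 2.75 percent. In the averaged effect of HFS 1 passed, again Chrna7, against 4.36 percent. In the averaged effect of L-DOPA 0 passed, against 2.73 percent. In the interaction 1 passed, Chrnb2, against 1.98 percent.

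Chrna7 in HFS was the single case of a tested member whose arrays did not overlap with 6-OHDA in any of the 3 comparisons. Among all genes the arrays were separate in either direction for 5.13 percent in HFS, 6.27 percent in DOPA and 4.18 percent in DOPA/HFS. The median log2 fold change of the 4 tested members was 0.43 for HFS, 0.15 for DOPA and 0.14 for the combination, where the medians over all genes were 0.01, -0.01 and -0.01. Single arrays moved these medians. Without the second 6-OHDA array they were 0.027, -0.10 and -0.28. With any other array left out they ran from 0.27, without the third HFS array, to 0.57 for HFS, from -0.061, without the third DOPA array, to 0.53 for DOPA, and from 0.040, without the first DOPA/HFS array, to 0.33 for the combination. The upper ends were without the first 6-OHDA array. They passed the filter by being bright on most arrays in all groups.

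**Figure D4:**
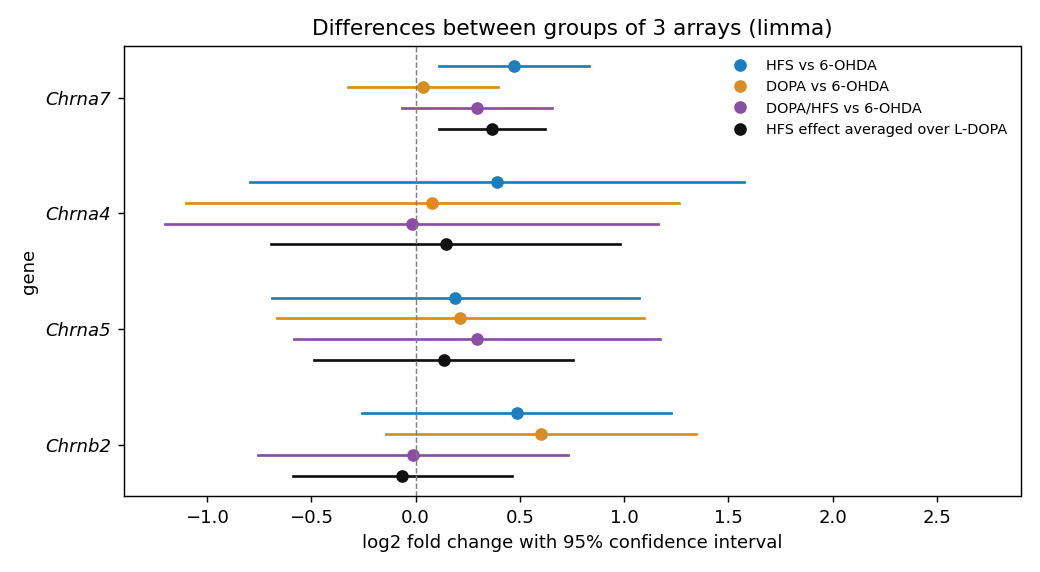
Log2 fold change of each tested subunit in limma, with its 95% confidence interval as a line, for HFS, DOPA and DOPA/HFS against 6-OHDA and for the effect of HFS averaged over rats with and without L-DOPA, from groups of 3 arrays. The intervals of Chrna7 for HFS, 0.11 to 0.83, and for the averaged effect of HFS, 0.11 to 0.62, lie above 0, and all other intervals span 0.

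Chrna4 and Chrna5 varied together from rat to rat. Over the 12 arrays their log2 signals correlated at Pearson's r = 0.897 (permutation p = 7e-05, adjusted p = 0.00099) and Spearman's rho = 0.93 (permutation p = 3e-05, adjusted p = 0.00054). The adjustment was over 18 relations among the 4 subunits, the share of spots above background and the sums of cortex and choroid plexus genes. Without the third DOPA and first 6-OHDA arrays, the farthest from the median of Chrna4, r was 0.831.

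The relation held within each slide, at r = 0.892, 0.860 and 0.95 over 4 arrays each, and at 0.948 over deviations from the group means. The 12 arrays leave a gap in Chrna4 between 7.01 and 7.69, and over the 8 arrays below it r was 0.955. Among 18356 other genes measured on all arrays, Chrna5 was the 17th closest to Chrna4, and Chrna4 was the 24th closest to Chrna5. The points share arrays, labelling and normalization, and each of these subunits was read from 1 spot per array.

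Genes of the cortex, which borders the dorsal striatum, moved with both subunits. The list had 5 genes, of which Slc17a7, the vesicular glutamate transporter of cortical neurons, and Neurod2, a transcription factor of such neurons, had a probe. Their summed signal was 727, 248 and 388 in 6-OHDA and 171, 830 and 1114 in HFS. It was 322, 372 and 1052 in DOPA and 420, 442 and 411 in DOPA/HFS. Most of that sum came from Neurod2 on every array, so it describes that gene more than Slc17a7. Neurod2 was above background on 12 arrays and Slc17a7 on 10, without the second 6-OHDA and the first HFS array. The 4 arrays with the highest sums were the 4 with Chrna4 above 7.68.

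The log2 of that sum correlated with Chrna4 at r = 0.911 (permutation p = 0.00011, adjusted p = 0.00099) and rho = 0.874 (permutation p = 0.00038, adjusted p = 0.00228), and at r = 0.889 without the third DOPA and first 6-OHDA arrays. With Chrna5 it correlated at r = 0.806 (permutation p = 0.00128, adjusted p = 0.00768) and rho = 0.881 (permutation p = 0.00038, adjusted p = 0.00228), and at r = 0.786 without the second 6-OHDA array and the third DOPA array. Within slides r ran from 0.893 to 0.978 for Chrna4 and from 0.815 to 0.932 for Chrna5. Over the 8 arrays below the gap in Chrna4 the values were 0.616 and 0.685. The part of cortical tissue in the levels of Chrna4 and Chrna5 was not tested.

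No relation with the cortex sum or the choroid plexus sum was resolved for Chrna7 or Chrnb2. With the cortex sum Chrna7 gave r = -0.00 (rho = 0.105, adjusted permutation p = 0.996 and 0.810) and Chrnb2 gave r = 0.471 (rho = 0.364, adjusted permutation p = 0.274 and 0.600). With the choroid plexus sum Chrna7 gave r = 0.535 (rho = 0.427, adjusted permutation p = 0.220 and 0.600), and without the first DOPA/HFS and first HFS arrays it gave 0.564. Chrna4 and Chrnb2, which form a receptor together, correlated at r = 0.474 (rho = 0.350, adjusted permutation p = 0.274 and 0.600).

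**Figure D5:**
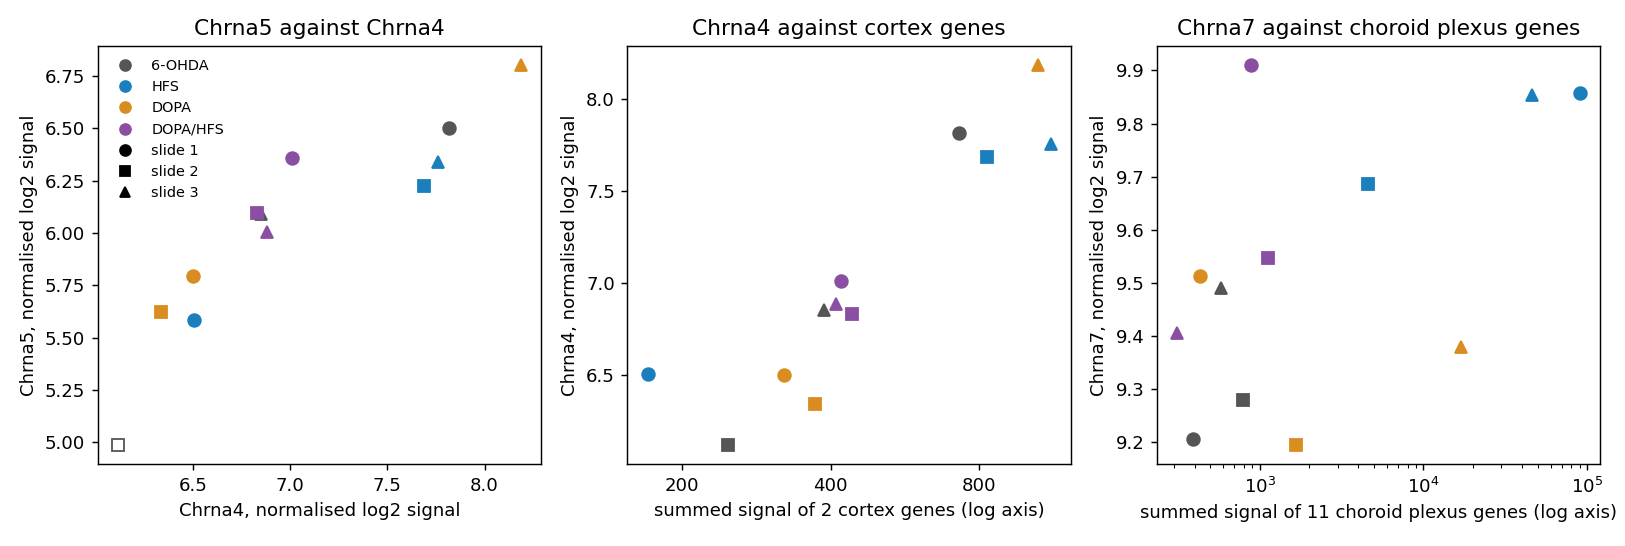
Pairs of measures over the 12 arrays, with the group in colour and the marker giving the slide. Left, log2 signal of Chrna5 against Chrna4 (r = 0.897), centre, log2 signal of Chrna4 against the summed linear signal of Slc17a7 and Neurod2 on a log axis (r = 0.911), and right, log2 signal of Chrna7 against the summed linear signal of 11 choroid plexus genes on a log axis (r = 0.535). The open point was not above background for Chrna5, and points of different groups are mixed along the left and centre trends. On the third DOPA/HFS array Folr1 and Slc4a5 are missing from the choroid plexus sum.

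The genes whose signal followed each subunit most closely were taken as the 3 with the highest Pearson correlation over the 12 arrays, among 18357 genes, as a description. For Chrna4 the nearest was Stx1a, a syntaxin of synaptic vesicle release, at r = 0.965. Those of Chrna7 included Rps4x, which encodes a ribosomal protein, at 0.938 and Lrrc66 at 0.937. For Chrna5 the nearest was G4 at 0.964. For Chrnb2 it was RGD1560924_predicted at 0.937.

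The wider cholinergic genes were followed from a list of 22, made of further nicotinic subunits, genes for receptor assembly and modulation, and genes that handle acetylcholine. Of these 14 had a probe and 8 were tested, and limma called 0 of the 8 in each of the 6 comparisons. At an unadjusted p under 0.05, 0 of 8 passed in HFS, against 2.34 percent of all genes, 1 in DOPA, Chrng, against 2.59 percent, and 0 in DOPA/HFS, against 2.75 percent. In the averaged effect of HFS 1 passed, Chrne, against 4.36 percent. In that of L-DOPA Chrne passed with a lower and Chrng with a higher mean, against 2.73 percent, and in the interaction 1 passed, Colq, against 1.98 percent. Chrne and Chrng reached the filter through treated arrays alone, so these counts are a description.

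The genes of acetylcholine supply and breakdown did not pass in any treatment against 6-OHDA. Slc18a3, which loads acetylcholine into vesicles, differed from 6-OHDA by -0.22 for HFS, -0.09 for DOPA and -0.19 for their combination (SE 0.21). Slc5a7, the choline transporter, differed by -0.07, -0.21 and -0.00 (SE 0.15). Ache, which breaks acetylcholine down, differed by -0.03, 0.05 and 0.12 (SE 0.17). None of the differences in these 3 genes exceeded 2 SE.

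Colq, which anchors acetylcholinesterase, differed by -0.50, -0.29 and 0.13 (SE 0.26), and its interaction of HFS and L-DOPA was 0.92 (SE 0.36), with an adjusted p of 1 in limma. Tmem35a, a chaperone for the assembly of α7 receptors, differed by -0.09, -0.12 and -0.17 (SE 0.18), and was not higher on average in any treated group. Lypd1, a membrane protein that modulates nicotinic receptors, differed by 0.11, 0.35 and 0.21 (SE 0.27).

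The nicotinic subunits of muscle and of inner ear hair cells were at the edge of detection. Chrna1, Chrnb1 and Chrnd, of muscle receptors, were above background on 0 of 12 arrays. Of the hair cell subunits, Chrna9 was so on 0 arrays and Chrna10 on 1. Chrne and Chrng reached the filter of 5 arrays with 0 arrays of 6-OHDA, Chrne through 3 HFS and 2 DOPA/HFS arrays and Chrng through 2 DOPA, 1 HFS and 2 DOPA/HFS arrays. Each was thus tested only because treated arrays were bright, and its difference from 6-OHDA is given as a description. Chrne, the ε subunit of the adult muscle receptor, was at 4.68, 4.79 and 4.67 in 6-OHDA, not above background, and at 5.23, 5.86 and 5.44 in HFS, above background on all 3 arrays. The HFS arrays did not overlap with 6-OHDA, as held in either direction for 5.13 percent of all genes. The mean of these HFS arrays was at least 1.39-fold above that of the 6-OHDA arrays. In limma the difference was 0.79 on the log2 scale (SE 0.37), with an unadjusted p of 0.057 and an adjusted p of 0.998. For this bound each array of the dimmer group was given its lowest signal marked above background, or the probe's own signal where that was higher. The bound describes the means of the arrays measured and takes no account of the spread between rats. Chrng, the γ subunit of the fetal muscle receptor, was at 4.45, 4.2 and 2.82 in 6-OHDA, not above background, and at 5.54 and 5.90 on the first and second DOPA arrays. The third DOPA array had no usable spot. On the other 2 arrays, against 3 of 6-OHDA, the DOPA mean was at least 1.63-fold higher by the same kind of bound, with an adjusted p of 1 in limma.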

How the data were processed

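Cy3-labelled RNA from 12 rats was read on 1-colour Agilent arrays of 45018 spots, of which 1639 were controls and were dropped. The intensity values are those the authors deposited from Feature Extraction 9.1 (per the file headers 9.1.3.1), on a linear scale, background-subtracted and not normalized between arrays. The log2 table that the authors deposited for the series had been quantile normalized by them and served as an alternative.

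Groups and replicate numbers came from the labels. Each number marks a slide with 1 array of each group, per the file headers. Deviations of same-numbered arrays from their group means correlated at -0.29 to 0.12 on slide 1 and at -0.16 to 0.48 on slide 3. On slide 2 all 6 pairs were positive, at 0.07 to 0.43, so a shared part on that slide is not excluded. The slide was used as a block only as an alternative. Spots marked as outliers were dropped, log2 intensities were quantile normalized and averaged per probe, and probes had to be above background on at least 5 arrays, a share of 0.4. The brightest of the probes that passed stood for a gene, and 10735 probes took their name from the GRCr8 gene list of RefSeq. Groups were compared with limma 3.58.1 in R 4.3.3 (data.table version 1.17.8, jsonlite version 2.0.0), with Benjamini-Hochberg adjustment over all genes tested. A gene was called at an adjusted p under 0.1 beyond fold limits of 1.2 and 0.8. Correlations used 1e+05 permutations. The fit was tested on simulated data. With 3 arrays per group, precision is limited by their number.

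The named genes were the 9 members, the cholinergic genes, the marker lists, and the 3 genes nearest to each tested member, not all of which are reported here. The members and lists were chosen with earlier results of these data known. The correlations and the test of the dimmer Chrna7 probe were chosen after seeing the data. The RT-qPCR rats were not analysed here.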

Additional observations from a re-analysis of the deposited data

How the results depend on the processing

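The number of members called was 0 in each of the 6 comparisons under every alternative that was run. The alternatives were scaling to the 75th percentile, subtraction of Hprt1, normexp correction (offset 50), the deposited log2 table, keeping outlier spots, another filter or none, the mean of passing probes, smaller fits, an adjusted p under 0.05, dropping the fold limits, the replicate block, and leaving out each array. The lowest adjusted p of a member in limma was 0.514, for Chrna7. Chrna7 in HFS lay between 0.34 and 0.49 across the settings and between 0.41 and 0.56 with an array left out, and its averaged effect of HFS between 0.16 and 0.42 and between 0.29 and 0.42. The values of 0.34 and 0.16 came from the dimmer probe. With the replicate block, Chrna7 in HFS was 0.47 in limma (SE 0.16, adjusted p = 0.980), the averaged effect 0.37 (SE 0.11, adjusted p = 0.668) and the Chrnb2 interaction -1.10 (SE 0.44, adjusted p = 1). The block changed no call.

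Of the recomputed log2 fold changes of members, 480 kept their sign and 42 did not, and each of the 42 belonged to a difference smaller than its standard error. The cause was not tested. With Hprt1 subtracted, DOPA/HFS against 6-OHDA became 0.068 for Chrna4 and 0.073 for Chrnb2, and with normexp 0.027 for Chrnb2. With the deposited table, the averaged effect of HFS became -0.014 for Chrna4 and -0.019 for Chrna5, and that of L-DOPA -0.0013 for Chrnb2. With outlier spots kept, the averaged effect of L-DOPA became -0.054 for Chrnb2. With the dimmer probe it became 0.11 for Chrna7. In DOPA/HFS against 6-OHDA the median of all genes was -0.01, -0.12 in the deposited table and -0.14 with outlier spots kept.

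With an array left out, Chrna4 ranged from -0.016 to 0.83 in HFS, -0.51 to 0.52 in DOPA and -0.43 to 0.42 in DOPA/HFS, from -0.058 to 0.44 and -0.46 to 0.058 in the averaged effects of HFS and L-DOPA, and from -0.93 to 0.10 in the interaction. Chrna5 ranged from -0.25 to 0.51, -0.22 to 0.54, -0.14 to 0.61, -0.083 to 0.32, -0.059 to 0.32 and -0.43 to 0.33 in the same order. Chrna7 ranged from -0.039 to 0.12 in DOPA. Chrnb2 ranged from -0.43 to 0.26 in DOPA/HFS, and from -0.27 to 0.072 and -0.16 to 0.19 in the averaged effects of HFS and L-DOPA.

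With 3 rats per group, the intervals of Chrna4, Chrna5 and Chrnb2 in the comparisons with 6-OHDA spanned over 1 log2 unit, and the signal over background limits what can be said of the 5 subunits that were not tested.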
